A study of Mus musculus with 17 samples.

Results

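The genes described here encode 10 proteins listed as calcium or calmodulin binding, measured in sorted astrocytes of the cortex and of 3 thalamic nuclei of the mouse. They were found by gene symbol as *Calb1*, *Calb2*, *Pvalb*, *Nrgn*, *Pcp4*, *Pcp4l1*, *Efhd2*, *Necab1*, *S100b* and *S100a6*, and all 10 were present among the 26556 genes of the count files. The list had been chosen by earlier results of these same libraries in which several members differed between regions, so the region differences below are a description of size against spread and are not independent evidence. The adjusted p values serve only that description.

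The libraries came from FVB *Gfap::GFP* mice at postnatal day 7, in which the *Gfap* promoter drives green fluorescent protein, and each library pooled the cells of 4 brains. Bulk RNA-seq was performed on 4 libraries of the primary somatosensory cortex and 5 of the dorsolateral geniculate nucleus (dLG, visual). It was also performed on 4 of the ventral posteromedial nucleus (VPM, somatosensory) and 4 of the ventral division of the medial geniculate nucleus (MGv, auditory). All groups shared strain, genotype, age and cell sort, and none was treated. The groups therefore differed in region, and the comparisons asked which of the genes had region-specific levels.

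Calcium entering a cell is bound by proteins with EF-hand loops. Some of these, such as the calbindins and parvalbumin, mainly buffer calcium, and others, such as calmodulin and the S100 proteins, change shape and act on partner proteins. Neurogranin and PCP4 instead bind calmodulin itself through an IQ motif and set how much of it is free. PCP4L1, a relative of PCP4 with an IQ motif, is grouped with them here. In the brain the buffers and neurogranin are best known from neurons, whereas *S100b* is a classical gene of astrocytes that is also expressed in the oligodendrocyte lineage.

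Library totals ran from 18213687 to 50366363 counts, so that 3 counts, the limit that a count of 0 allows, corresponded to 0.0596 to 0.165 CPM, which are read counts scaled to a common library total. This limit covers counting error only. The labelled cell type was checked on markers. The 8 astrocyte markers summed to 11860 to 12820 CPM in the cortex, above every thalamic library. They summed to 6431 to 8626 CPM in the dLG, 6166 to 8561 in the VPM and 5718 to 9413 in the MGv. Of the 8 markers, 3 were higher in the cortex than in the thalamus, whereas none was higher in the thalamus. Neuronal RNA was present as well, since the 10 pan-neuronal markers summed to 969 to 1210 CPM in the cortex, 1139 to 1564 in the dLG, 624 to 1627 in the VPM and 582 to 1881 in the MGv. Markers of the oligodendrocyte lineage (7 genes) summed to 2572 to 5966 CPM over all groups, and the highest sums of the microglial, endothelial, mural and fibroblast, and ependymal lists were 89.3, 46.5, 66.4 and 107.8 CPM. Some of these lists also moved with region. The mural and fibroblast list summed to 38.2 to 66.4 CPM in the cortex against 30.9 CPM or less in the nuclei. Its genes did not move together. *Pdgfrb* was lower in the thalamus (log2FC -3.74, edgeR adjusted p = 1.22e-05), whereas *Dcn* was higher (log2FC 8.84, edgeR adjusted p = 0.0117). *Dcn* was at 0.0 CPM in every cortical library and at 10.02 CPM or less in the nuclei. All 3 tested ependymal markers were higher in the cortex than in each nucleus. Of the inhibitory neuron markers, *Dlx1* and *Dlx2* were higher in the cortex (log2FC of thalamus over cortex -7.15 and -6.69, adjusted p = 3.91e-07 and 3.82e-06). The part of these cell types in the differences below was not tested. No library was left out. In these bulk samples, fewer cells of a type and less RNA per cell cannot be told apart. The sequencing library numbers in the labels fell into 3 series, of which the largest held 10 libraries and the second 6, with dLG replicate c alone in the last. All 4 MGv libraries were in the largest series, so that series and nucleus cannot be told apart for the MGv except by comparison with the other libraries of that series.

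Levels are given as CPM scaled by the trimmed mean of M values (TMM), in the order of the replicate letters. A difference was called when the edgeR quasi-likelihood test gave a Benjamini-Hochberg adjusted p below 0.1 over all 17856 genes tested, and all adjusted p values below are from that test. All 10 genes passed the filter on low counts. The 6 pairs of regions were taken from 1 fit, they share groups with each other, and their counts are not independent.

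For the thalamus (13 libraries) against the cortex (4 libraries), 4 of the 10 genes were higher in the thalamus, where 5.45% of all tested genes were called in that direction, and 1 was higher in the cortex, where 5.93% of all genes were. *Pcp4l1*, *Calb2*, *Pcp4* and *S100b* were higher in the thalamus and *Nrgn* in the cortex. Taken by nucleus, the dLG had 4 genes above the cortex (10.3% of all genes) and 2 below (9.04%), the VPM had 3 above (3.56%) and 3 below (5.44%), and the MGv had 5 above (7.87%) and 2 below (7.51%). Between nuclei, 3 genes were higher in the dLG than in the VPM (7.93% of all genes) and 1 in the VPM (5.76%), 1 was higher in the dLG than in the MGv (0.571%) and 2 in the MGv (0.454%), and 2 were higher in the VPM than in the MGv (7.4%) and 5 in the MGv (7.97%). Because the genes were chosen on region differences, nothing is read from these counts against the background shares. *Pvalb* and *S100a6* were called in none of the 7 comparisons. Of the 38 called differences, 5 had libraries that overlapped between the groups. These were thalamus against cortex for *Calb2*, *Pcp4* and *S100b*, and MGv against cortex for *Pcp4* and *S100b*. The share with overlap among all called genes was not taken, so nothing is read from this count. The 7 genes called for the MGv against the cortex fell to 4 without cortex replicate b, cortex replicate d, MGv replicate a or MGv replicate b.

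**Figure D1:**
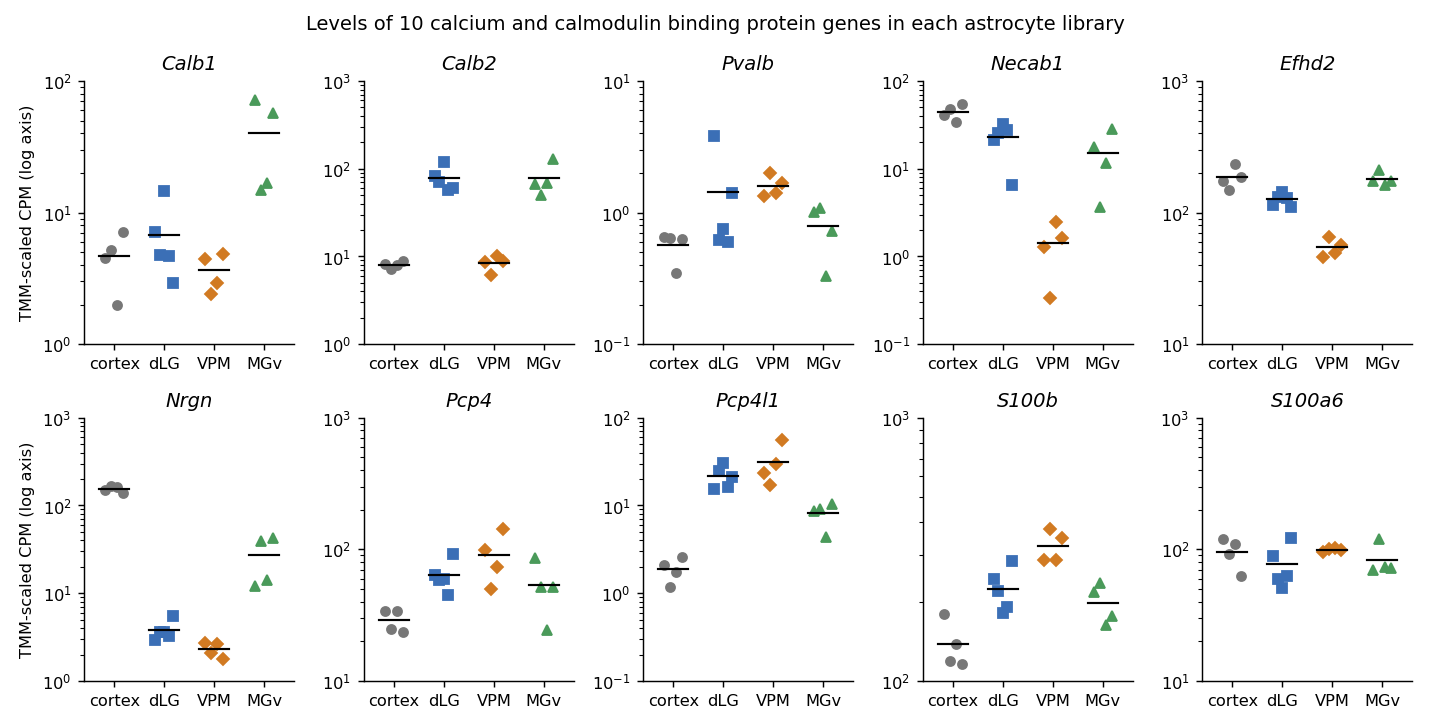
Level of each gene in each library (TMM-scaled CPM, log axis with its own range in each panel) for cortex (circles, n = 4), dLG (squares, n = 5), VPM (diamonds, n = 4) and MGv (triangles, n = 4), with the group mean as a black bar. *Nrgn* lay between 139.8 and 168 CPM in the cortex and at or below 42.8 CPM in every thalamic library, *Calb2* lay between 49.8 and 131 CPM in the dLG and MGv, and *Necab1* and *Efhd2* had their lowest levels in the VPM.

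Among the calcium buffers, *Calb1* and *Calb2* were high in different sets of nuclei. *Calb1* encodes calbindin D28K, a fast cytosolic buffer (chromosome 4, 15881264 to 15908064, plus strand, GRCm38). Its level was 4.56, 5.16, 1.98 and 7.09 CPM in cortex replicates a to d and 7.07, 4.78, 14.5, 4.67 and 2.93 CPM in dLG replicates a to e. It was 4.44, 2.40, 2.90 and 4.88 CPM in the VPM and 72.1, 14.9, 16.9 and 56.7 CPM in the MGv. All 4 MGv libraries were above all others, though the lowest MGv library (14.9 CPM) stood next to dLG replicate c (14.5 CPM), and within the MGv replicates a and d were far above b and c. The mean was 40.2 ± 28.8 CPM in the MGv (SD, n = 4), which gave a log2 fold change (log2FC) over the cortex of 3.10 ± 0.55 (SE, adjusted p = 0.00115). Against the MGv, the log2FC was -2.56 ± 0.50 for the dLG (adjusted p = 0.0150) and -3.45 ± 0.57 for the VPM (adjusted p = 0.00133). In order of level, the MGv was followed by dLG, cortex and VPM, whose neighbours did not differ beyond their spread. The 95% interval of the log2 difference was -0.45 to 1.51 for dLG over cortex and -1.40 to 0.69 for VPM over cortex. With the nuclei pooled the log2FC was 1.78 ± 0.88 and was not called (adjusted p = 0.259), with thalamic libraries ranging from 2.40 to 72.1 CPM.

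*Calb2* encodes calretinin, a buffer of the same family (chromosome 8, 110137502 to 110168210, minus strand). It was at 8.14, 7.13, 8.01 and 8.88 CPM in the cortex and at 8.64, 6.13, 10.2 and 8.96 CPM in the VPM. In the dLG it was at 83.3, 69.9, 120.3, 57.3 and 60.2 CPM and in the MGv at 66.3, 49.8, 68.0 and 131 CPM. The dLG and MGv libraries were all above every cortex and VPM library, with no overlap. The means of 78.2 ± 25.6 CPM (dLG, SD, n = 5) and 78.7 ± 35.6 CPM (MGv, SD, n = 4) were 9.73 and 9.79 times the cortical mean of 8.04 ± 0.718 CPM. The log2FC over the cortex was 3.28 ± 0.28 for the dLG (adjusted p = 1.68e-07) and 3.29 ± 0.29 for the MGv (adjusted p = 3.06e-07), and that of the dLG over the VPM was 3.20 ± 0.28 (adjusted p = 3.21e-06). The VPM was below the MGv by a log2FC of -3.21 ± 0.29 (adjusted p = 3.52e-06). The dLG and MGv were not separated, with a 95% interval of the log2 difference from -0.49 to 0.48, and neither were VPM and cortex, with an interval from -0.46 to 0.62. The pooled thalamus was called higher (log2FC 2.82 ± 0.73, adjusted p = 0.0198), although its 4 VPM libraries lay at the cortical level.

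*Pvalb* encodes parvalbumin, the buffer of fast-spiking interneurons (chromosome 15, 78191114 to 78206400, minus strand). Per kilobase of exon it was the lowest of the 10 genes in the cortex, dLG and MGv, with 7 to 81 counts in a library. The cortical levels were 0.648, 0.639, 0.346 and 0.627 CPM. They were followed by 3.79, 0.621, 0.756, 0.597 and 1.41 CPM in the dLG, 1.34, 2.01, 1.40 and 1.68 CPM in the VPM, and 1.01, 1.09, 0.332 and 0.725 CPM in the MGv. The VPM libraries were all above those of the cortex and MGv, and the high dLG mean rested on replicate a. No pair was called, the smallest adjusted p being 0.157 for the dLG over the cortex (log2FC 1.33 ± 0.60), which was called by DESeq2 and without dLG replicate d (adjusted p = 0.082 at the lowest). The order of the means was VPM, dLG, MGv and cortex, and no neighbours in it differed beyond their spread.

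The neuronal EF-hand gene *Necab1* (chromosome 4, 14952245 to 15149794, minus strand) was highest in the cortex and lowest in the VPM. It was at 41.4, 48.2, 34.2 and 54.3 CPM in the cortex and at 21.4, 25.6, 32.6, 27.7 and 6.46 CPM in the dLG. It was at 17.6, 3.62, 11.5 and 28.5 CPM in the MGv and at 1.29, 0.335, 2.50 and 1.63 CPM in the VPM, where the libraries held 6 to 50 counts. Every cortical library was above every thalamic one and every VPM library below all others. The VPM was lower than the cortex by a log2FC of -4.94 ± 0.61 (adjusted p = 2.45e-05), the dLG exceeded the VPM by 3.97 ± 0.58 (adjusted p = 0.000797), and the log2FC of the VPM over the MGv was -3.40 ± 0.58 (adjusted p = 0.00187). The MGv was called lower than the cortex (log2FC -1.54 ± 0.51, adjusted p = 0.0617). This call was lost without cortex replicate a (adjusted p = 0.105), b (0.131) or d (0.155), or without MGv replicate a (0.103), b (0.156) or c (0.130). The dLG did not pass the threshold (log2FC -0.97 ± 0.47, adjusted p = 0.189), although its libraries did not overlap with those of the cortex and the unadjusted 95% interval ran from -1.89 to -0.05. In the order of the means, cortex, dLG, MGv and VPM, the neighbours dLG and MGv overlapped and were not called (95% interval of the log2 difference from -0.37 to 1.51). The pooled thalamus was not called in the 2-group fit (log2FC -1.68 ± 0.68, adjusted p = 0.154) and was called when the mean of the 3 nuclei was taken from the fit of 4 groups (log2FC -2.48, adjusted p = 0.000130). An antisense gene, *Gm11837*, overlaps 7.83% of the exonic length of *Necab1*, and reads of the overlap cannot be assigned without strand.

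*Efhd2* encodes swiprosin-1, an EF-hand protein that binds actin (chromosome 4, 141858142 to 141874920, minus strand). Its levels in the cortex were 175, 149, 236 and 187 CPM, and those in the MGv were 174, 209, 163 and 175 CPM. They were 114, 132, 144, 129.6 and 110.2 CPM in the dLG and 46.3, 65.6, 49.7 and 57.1 CPM in the VPM. The VPM libraries were below all others, and all dLG libraries lay between those of the VPM and those of the cortex and MGv. The VPM was 3.41 times below the cortex (log2FC -1.77 ± 0.15, adjusted p = 2.48e-07), 3.30 times below the MGv (adjusted p = 3.52e-06) and 2.30 times below the dLG (adjusted p = 0.000145). The dLG was lower than the cortex (log2FC -0.57 ± 0.14, adjusted p = 0.0118). The first neighbours in the order, cortex and MGv, did not differ beyond their spread, with a 95% interval of the log2 difference (MGv over cortex) from -0.34 to 0.24. The MGv and dLG did not overlap but were not called (log2FC of dLG over MGv -0.52 ± 0.14, adjusted p = 0.133), and were called with DESeq2 (adjusted p = 0.0408) and without cortex replicate c. The pooled thalamus was not called (log2FC -0.63 ± 0.31, adjusted p = 0.263) but was with the mean of the 3 nuclei (adjusted p = 8.68e-05). *Efhd2* is also expressed by immune cells, and the 5 microglial markers summed to 6.40 to 10.9 CPM in the VPM against 10.3 to 89.3 CPM in the dLG, 11.3 to 53.1 CPM in the MGv and 9.88 to 18.6 CPM in the cortex. Their part in the *Efhd2* difference was not tested.

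The 3 genes of IQ motif proteins split by direction. *Nrgn* encodes neurogranin, which holds calmodulin in the postsynaptic spines of forebrain neurons (chromosome 9, 37544492 to 37552904, minus strand). It was at 149, 168, 161 and 139.8 CPM in the cortex, at 2.90, 3.58, 3.64, 3.23 and 5.45 CPM in the dLG, at 2.72, 2.06, 2.65 and 1.77 CPM in the VPM, and at 11.9, 39.1, 13.96 and 42.8 CPM in the MGv. The cortical libraries stood above all thalamic ones and the MGv above the dLG and VPM, with MGv replicates b and d well above a and c. The cortex exceeded the VPM by 67.0 times (log2FC of VPM over cortex -6.06 ± 0.39, adjusted p = 6.51e-09), the dLG by 41.1 times (-5.36 ± 0.34, adjusted p = 3.33e-09) and the MGv by 5.73 times (-2.52 ± 0.33, adjusted p = 3.99e-05). The MGv exceeded the dLG by 7.17 times (adjusted p = 5.64e-05) and the VPM by 11.7 times (adjusted p = 1.45e-05). The dLG and VPM did not overlap, yet their difference (log2FC 0.70 ± 0.34) was not called (adjusted p = 0.213). The log2FC for the pooled thalamus over the cortex was -3.88 ± 0.65 (adjusted p = 0.000511). *Slc17a7*, a vesicular glutamate transporter of cortical excitatory neurons, ran from 22.6 to 50.8 CPM in the cortex, 6.12 to 13.7 in the dLG, 12.3 to 50.6 in the VPM and 1.09 to 4.12 in the MGv, so that the VPM overlapped with the cortex. *Slc17a6*, the other glutamate transporter of the list, ran from 6.28 to 16.3 CPM in the cortex, 81.3 to 136.6 CPM for the dLG, 32.2 to 120.5 CPM for the VPM and 22.8 to 115.0 CPM for the MGv, and was higher in the thalamus (log2FC 3.01, adjusted p = 0.000193). The part of neuronal RNA in the *Nrgn* difference was not tested.

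*Pcp4* and its paralogue *Pcp4l1* moved the other way. *Pcp4* encodes PEP-19, which speeds calcium exchange on calmodulin (chromosome 16, 96467606 to 96525793, plus strand), and *Pcp4l1* encodes a related IQ protein (chromosome 1, 171173262 to 171196268, minus strand). The 250 bases before the RefSeq start of both genes, and of *Efhd2* as the member with the highest G and C content among the first starts, are shown to set the promoters of the thalamic pair beside that of a gene lowest in the VPM. Capitals mark matches to the GC box (GGGCGG) or the CCAAT box on either strand, the *Pcp4l1* match being on the opposite strand.

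Pcp4 (GRCm38.p6 chr16:96467356-96467605, plus strand): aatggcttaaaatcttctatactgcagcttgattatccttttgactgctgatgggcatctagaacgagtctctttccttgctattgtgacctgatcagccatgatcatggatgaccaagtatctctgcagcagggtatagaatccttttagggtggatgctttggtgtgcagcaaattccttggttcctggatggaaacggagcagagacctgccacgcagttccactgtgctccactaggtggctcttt

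Pcp4l1 (GRCm38.p6 chr1:171196269-171196518, minus strand): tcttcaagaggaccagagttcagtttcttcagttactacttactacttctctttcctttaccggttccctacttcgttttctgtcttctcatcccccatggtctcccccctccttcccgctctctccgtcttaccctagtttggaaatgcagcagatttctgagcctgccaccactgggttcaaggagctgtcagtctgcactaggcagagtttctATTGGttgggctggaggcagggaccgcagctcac

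Efhd2 (GRCm38.p6 chr4:141874921-141875170, minus strand): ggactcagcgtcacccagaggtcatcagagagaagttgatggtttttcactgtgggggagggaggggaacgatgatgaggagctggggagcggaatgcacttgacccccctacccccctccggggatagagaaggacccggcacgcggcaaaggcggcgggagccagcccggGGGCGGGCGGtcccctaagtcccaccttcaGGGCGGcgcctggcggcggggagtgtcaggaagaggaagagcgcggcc

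RefSeq windows of the same length were matched for 7 of the 10 genes. The G and C content was 46.8% for *Pcp4*, 51.6% for *Pcp4l1* and 67.2% for *Efhd2*, against a median of 52.4% over 32817 promoter windows. In addition to the GC and CCAAT boxes, TATAAA and TGACGTCA (the cAMP response element) were searched on both strands. *Pcp4* held none of the 4 motifs, *Pcp4l1* held the CCAAT box and *Efhd2* held the GC box 3 times, of which the first 2 overlap, whereas 33.8% of all windows held the CCAAT box, 32.7% the GC box, 12.4% TATAAA and 1.55% TGACGTCA. A match is a description of these letters and not of a site in use.

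*Pcp4* was at 33.8, 24.6, 34.1 and 23.5 CPM in the cortex and at 63.8, 58.1, 59.8, 45.3 and 92.6 CPM in the dLG. It was at 98.8, 50.4, 73.2 and 142 CPM in the VPM and at 86.3, 52.1, 24.3 and 51.4 CPM in the MGv. All libraries of the dLG and VPM were above the cortex, and MGv replicate c lay within the cortical range. Over the cortex the log2FC was 1.65 ± 0.33 for the VPM (adjusted p = 0.00325), 1.14 ± 0.31 for the dLG (adjusted p = 0.0221) and 0.88 ± 0.33 for the MGv (adjusted p = 0.0937). The MGv call was lost without cortex replicate a (adjusted p = 0.131), b (0.221) or d (0.188), without dLG replicate a (0.107) or b (0.110), and without MGv replicate a (0.279), b (0.139) or d (0.129). It was also lost when the library number series was a term of the fit (adjusted p = 0.171). The order of the means was VPM, dLG, MGv and cortex, and no 2 nuclei were called different. For VPM over MGv the unadjusted 95% interval of the log2 difference ran from 0.13 to 1.40, but the threshold was not passed (adjusted p = 0.142). That pair was called without MGv replicate a or without VPM replicate b (adjusted p = 0.0522 at the lowest). The pooled thalamus had a log2FC of 1.25 ± 0.32 (adjusted p = 0.0168). Exons of *Igsf5* on the same strand overlap 23.7% of the exonic length of *Pcp4*, so counts of *Pcp4* leave out or share the reads of that stretch.

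*Pcp4l1* was at 2.12, 1.18, 1.73 and 2.61 CPM in the cortex, with 24 to 98 counts in a library. It was at 15.3, 24.7, 30.6, 16.2 and 21.3 CPM in the dLG, at 23.7, 16.95, 29.5 and 55.1 CPM in the VPM and at 8.56, 9.11, 4.42 and 10.3 CPM in the MGv. The cortex was below all thalamic libraries, and the MGv below all libraries of the dLG and VPM, which overlapped with each other. Over the cortex the level was 16.4 times as high in the VPM (log2FC 4.03 ± 0.39, adjusted p = 1.05e-06), 11.3 times in the dLG (3.49 ± 0.37, adjusted p = 3.04e-06) and 4.25 times in the MGv (2.08 ± 0.37, adjusted p = 0.00109). The VPM exceeded the MGv by a log2FC of 1.95 ± 0.35 (adjusted p = 0.00279), and the dLG exceeded the MGv by 1.41 ± 0.33 (adjusted p = 0.0593). The latter call was lost without dLG replicate b (adjusted p = 0.133) or c (0.119) and without MGv replicate a (0.118), b (0.136) or c (0.214), and when only thalamic libraries were fitted (0.111). The VPM and dLG did not differ beyond their spread, with a 95% interval of the log2 difference (dLG over VPM) from -1.16 to 0.09. The log2FC for the pooled thalamus over the cortex was 3.41 ± 0.56 (adjusted p = 0.000377).

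**Figure D2:**
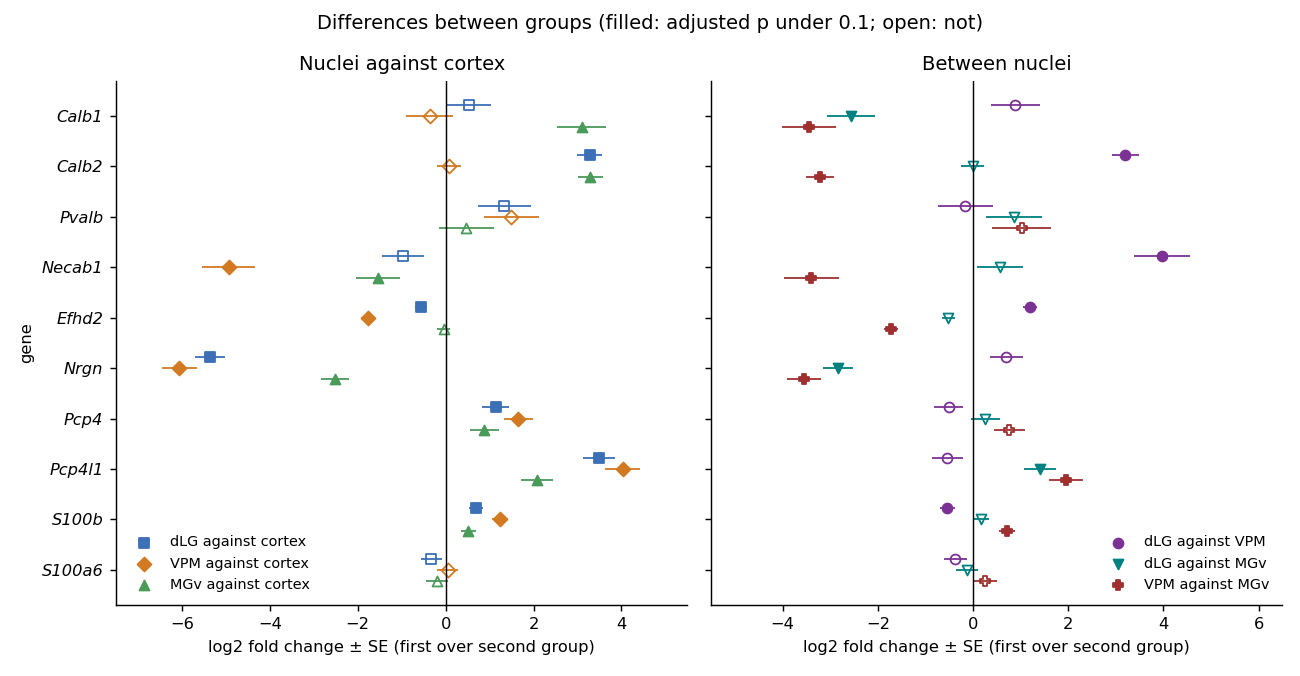
Log2 fold changes of the 10 genes with their standard errors (horizontal axis, first over second group) for the 3 nuclei against the cortex (left) and for the pairs of nuclei (right). Filled symbols had an adjusted p below 0.1 and open symbols did not. *Nrgn* was lower in all 3 nuclei than in the cortex and *Pcp4*, *Pcp4l1* and *S100b* were higher in all 3, whereas *Calb2* was higher in the dLG and MGv only among the differences called.

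Of the S100 proteins, which form dimers that bind target proteins upon calcium binding, *S100b* differed between regions. It lies on chromosome 10, 76253853 to 76261159, plus strand, and was the most abundant of the 10 genes per kilobase of exon in all 3 nuclei, with means of 151, 219 and 134 CPM per kb in dLG, VPM and MGv. In the cortex its 93.3 CPM per kb stood below the 106 CPM per kb of *Nrgn*. By library it was at 180.3, 119, 138 and 116 CPM in the cortex, at 244, 219, 181, 191 and 285 CPM in the dLG, at 289, 379, 288 and 348 CPM in the VPM and at 218, 236, 162 and 176 CPM in the MGv. The VPM libraries were above all others, the highest dLG library (285 CPM) being next to the lowest of the VPM (288 CPM), and the MGv overlapped with the cortex and the dLG. Over the cortex the log2FC was 1.23 ± 0.18 for the VPM (adjusted p = 0.000122), 0.69 ± 0.17 for the dLG (adjusted p = 0.00969) and 0.52 ± 0.17 for the MGv (adjusted p = 0.0660). The MGv call was lost without cortex replicate b (adjusted p = 0.194) or d (0.132) and without MGv replicate a (0.106) or b (0.145). The VPM exceeded the MGv by 0.72 ± 0.17 on the log2 scale (adjusted p = 0.0176), and the log2FC of the dLG over the VPM was -0.54 ± 0.16 (adjusted p = 0.0518). The latter call was lost without dLG replicate c (0.111), without VPM replicate a (0.101), b (0.119) or d (0.157), and when the series was a term of the fit (0.122). The neighbours dLG and MGv did not differ beyond their spread, with a 95% interval of the log2 difference from -0.15 to 0.50. The log2FC for the pooled thalamus over the cortex was 0.84 ± 0.21 (adjusted p = 0.0142). The 7 markers of the oligodendrocyte lineage summed to 2661 to 5966 CPM in the VPM, 2854 to 3808 CPM in the cortex, 3010 to 4029 CPM in the dLG and 2572 to 3631 CPM in the MGv, and their part in the *S100b* difference was not tested.

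*S100a6* encodes calcyclin (chromosome 3, 90612882 to 90624181, plus strand) and was not called in any comparison. It was at 119.7, 91.9, 110.0 and 62.7 CPM in the cortex, at 89.7, 59.4, 50.6, 63.0 and 122 CPM in the dLG, at 96.2, 100.4, 102 and 98.5 CPM in the VPM and at 69.4, 119, 73.3 and 71.9 CPM in the MGv. The ranges of all 4 groups overlapped. The VPM libraries were the closest to each other, with an SD of 2.33 CPM against 23.96 CPM or more in the other groups. The order of the means was VPM, cortex, MGv and dLG, with no neighbours that differed beyond their spread, and the 95% interval of the log2 difference between pooled thalamus and cortex was -0.57 to 0.24 (adjusted p = 0.707).

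The direction of the called differences was looked at within the library number series. On the scale of mean log2(CPM + 0.5), all 38 called differences had the same sign within the largest series, and the 21 that had a value within the second series had the same sign there too. The differences were called on these same libraries, so this agreement was largely given in advance. It is no check on the series, and the share over all called genes was not taken. The second series held no MGv library. Within the largest series alone, the log2 difference between MGv and cortex was 2.90 for *Calb1*, 3.05 for *Calb2*, -2.67 for *Nrgn*, 1.65 for *Pcp4l1* and 0.63 for *S100b*, against 2.75, 3.12, -2.71, 1.81 and 0.52 over all libraries. The difference between pooled thalamus and cortex for *Calb1*, which was not called, was 1.58 within the largest series and -0.42 within the second, the latter without the MGv.

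Because these libraries held neuronal RNA, the level of each gene was set beside the mean log2(CPM + 0.5) of the 10 pan-neuronal markers, with both centred on their group means so that the region difference does not enter. Over the 17 libraries *Calb1* rose with the neuronal markers, with a Pearson r of 0.80 (2-sided permutation test within groups, p = 0.00117, adjusted over the 10 genes p = 0.0117) and a Spearman rho of 0.80 (permutation p = 0.00419, adjusted p = 0.0419). In the MGv, replicates a and d had neuronal levels 0.81 and 0.58 above the group mean on the log2 scale and *Calb1* levels of 72.1 and 56.7 CPM, whereas b and c were 0.62 and 0.77 below it and had 14.9 and 16.9 CPM. The part of neuronal RNA in the *Calb1* level of the MGv was not tested. Without the 2 libraries farthest from the median, MGv replicates a and c, r for *Calb1* was 0.72, and over the 10 libraries of the largest series it was 0.85. With 5 inhibitory neuron markers in place of the pan-neuronal list, r was 0.02. Of these markers, *Dlx1* and *Dlx2* were at 1.15 CPM or less in every thalamic library. *Slc32a1* was at 0.518 CPM or less in the VPM and MGv. Counting error therefore enters this r strongly, and a low value does not show that inhibitory neuron RNA was unrelated.

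The other genes did not pass an adjusted p of 0.05 in the same permutation test, which covers 10 relations. At the limit of 0.1 used for the region differences, *Necab1*, *Pcp4*, *Pcp4l1* and *S100a6* would pass by Pearson r. Pearson r was 0.67 for *Necab1* (permutation p = 0.0265, adjusted p = 0.0662), 0.66 for *Pcp4* (p = 0.0391, adjusted p = 0.0781), 0.63 for *Pcp4l1* (p = 0.0177, adjusted p = 0.0662) and 0.56 for *Calb2* (p = 0.0711, adjusted p = 0.119). It was -0.43 for *S100a6* (permutation p = 0.0216, adjusted p = 0.0662), and for *S100b*, *Efhd2*, *Nrgn* and *Pvalb* it lay between -0.19 and -0.01 (smallest adjusted p = 0.671). Spearman rho was 0.69 for *Necab1*, 0.45 for *Pcp4*, 0.61 for *Pcp4l1*, 0.55 for *Calb2* and -0.54 for *S100a6* (adjusted permutation p of 0.0662, 0.241, 0.0662, 0.115 and 0.0662). Without the 2 farthest libraries, r was 0.76 for *Necab1*, 0.41 for *Pcp4*, 0.61 for *Pcp4l1*, 0.76 for *Calb2*, -0.53 for *S100a6* and -0.54 for *S100b*, and between -0.30 and -0.03 for *Pvalb*, *Efhd2* and *Nrgn*. With the inhibitory markers, under the same limit of low counts, r was -0.61 for *S100b*, -0.51 for *Pcp4*, -0.39 for *Pcp4l1*, -0.38 for *S100a6* and -0.31 for *Efhd2*. It lay between -0.06 and 0.23 for *Necab1*, *Calb2*, *Pvalb* and *Nrgn*. Because the group means were taken out, these values do not measure the part of neuronal RNA in the differences between groups. That part was not tested.

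**Figure D3:**
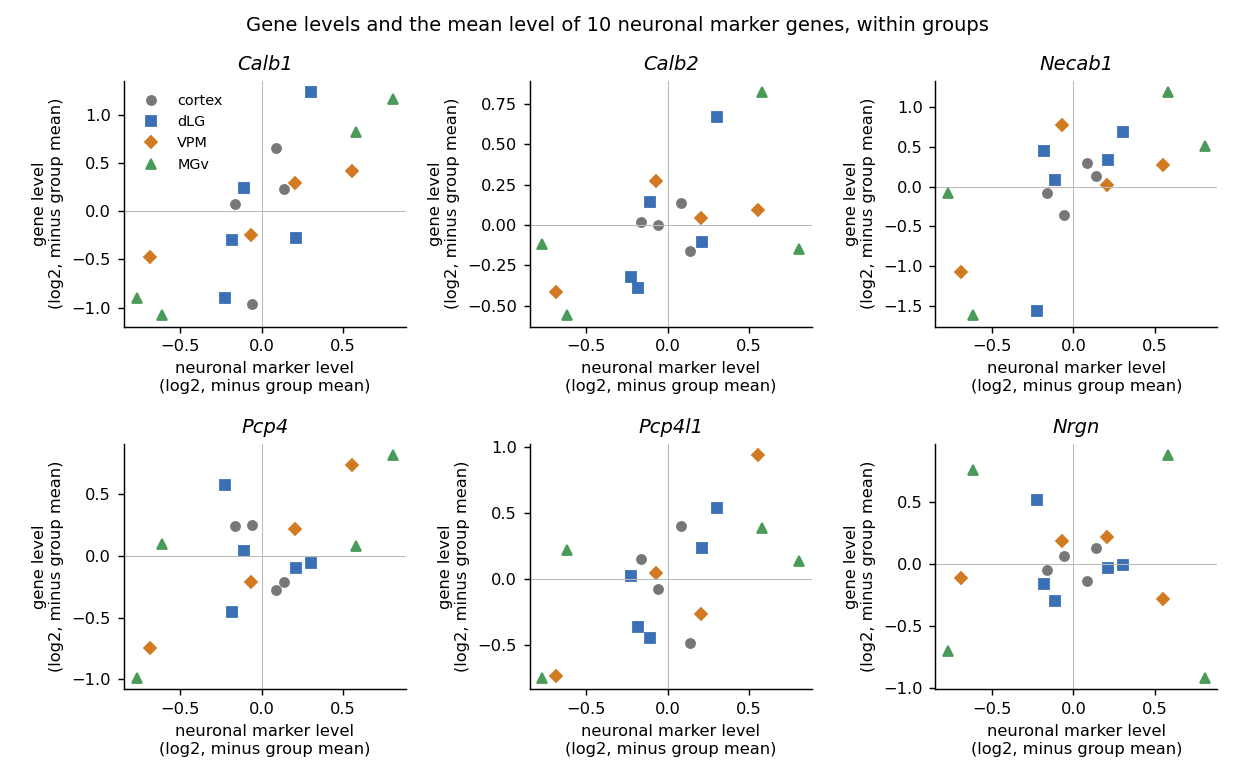
Level of 6 of the genes (vertical axis, log2(CPM + 0.5) minus the group mean) against the mean level of the 10 pan-neuronal markers (horizontal axis, same scale) in the 17 libraries, with symbols for the 4 groups. *Calb1* rose along the axis (r = 0.80), with MGv replicates a and d at the upper right and b and c at the lower left, and r for *Nrgn* was -0.08.

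The genes with the most similar patterns were found by the Pearson r of log2(CPM + 0.5) over the same 17 libraries among 11655 genes with a mean of at least 5 CPM, as a description without a test and without regard to function. Group differences and shared depth enter this r. For *Calb1* they were *Foxp2* (r = 0.88), *Tenm1* (0.86) and *Gm42517* (0.82), and *Foxp2* averaged 15.2, 14.7, 12.7 and 51.1 CPM in cortex, dLG, VPM and MGv. For *Calb2* they were *Tmie* (0.91), *Phf1* (0.90) and *1500009L16Rik* (0.90). For *Pvalb* they were *Mrpl37* (0.85), *Gmpr* (0.76) and *mt-Co1* (0.75). *Necab1* was most like *Plppr4* (0.93), *Mest* (0.91) and *Chst2* (0.87), and *Efhd2* most like *Trim47* (0.96), *Crip2* (0.94) and *Pdlim4* (0.94).

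Of the IQ genes, *Nrgn* was most similar to *Npas1* (0.96), *Fbrsl1* (0.94) and *Nkain4* (0.93). *Pcp4* was most like *Homer2* (0.93), *Mgst3* (0.93) and *Adarb1* (0.92), and *Pcp4l1* most like *Nexn* (0.95), *Car4* (0.95) and *Gal* (0.94). *S100b* was most like *Homer2* (0.92), *Gmpr* (0.90) and *Cthrc1* (0.88), so that *Pcp4* and *S100b* shared *Homer2*. *S100a6* was most like *Med28* (0.94), *Fmc1* (0.94) and *Mrpl46* (0.92).

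Of 74 other calcium and calmodulin genes listed, 69 were in the files and 66 passed the filter. For the pooled thalamus, 4 of the 66 were higher and 9 lower than in the cortex, against 5.45% and 5.93% of all genes, and their median log2FC was -0.12 where that of all genes was 0.02. The 13 called fell to 7 without cortex replicate a, c or d and to 6 without cortex replicate b. Among the relatives of the 10 genes, *Necab2* was higher in the thalamus (log2FC 1.03 ± 0.19, adjusted p = 0.00115), opposite in sign to *Necab1*, with means of 36.4 CPM in the cortex and 64.7, 81.0 and 79.4 CPM in dLG, VPM and MGv. *Necab3* and *Efhd1* were not called. Of 8 tested S100 genes, *S100a11* was higher in the thalamus (log2FC 1.91 ± 0.62, adjusted p = 0.0680) at means of 0.566 to 3.70 CPM, and *S100a16* was lower (log2FC -0.52 ± 0.17, adjusted p = 0.0608) at means of 559.9 to 924.5 CPM. The IQ gene *Gap43*, which encodes a growth cone protein that binds calmodulin, was not called (log2FC 0.25 ± 0.16, adjusted p = 0.412).

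Of 13 neuronal calcium sensor and related genes, 3 were lower in the thalamus, namely *Kcnip4* (log2FC -0.74 ± 0.21), which encodes a potassium channel interacting protein, *Cabp1* (-0.75 ± 0.22) and *Caln1* (-0.65 ± 0.23), and none was higher. Of 13 calmodulin kinase genes and regulators, *Camk2d* (log2FC 0.58 ± 0.16), a subunit of calmodulin kinase II, and *Camk4* (1.08 ± 0.36) were higher, and *Camkv* (-1.40 ± 0.40) was lower. None of 7 calcineurin genes was called. Of 7 CREC and SPARC genes, whose CREC members reside in the secretory pathway, *Rcn3* (log2FC -1.39 ± 0.26) and *Rcn2* (-0.64 ± 0.14) were lower. Of 10 other EF-hand genes, *Gca* (log2FC -1.76 ± 0.46), which encodes grancalcin, and *Cetn2* (-0.37 ± 0.13), which encodes a centrin of the centrosome, were lower. The adjusted p values of these genes lay between 0.00135 and 0.0922. Over all genes 5.45% were called higher in the thalamus and 5.93% lower, and nothing is read from the counts by family. *Scgn* was listed at means of 0.0366 to 0.390 CPM and did not pass the filter.

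**Figure D4:**
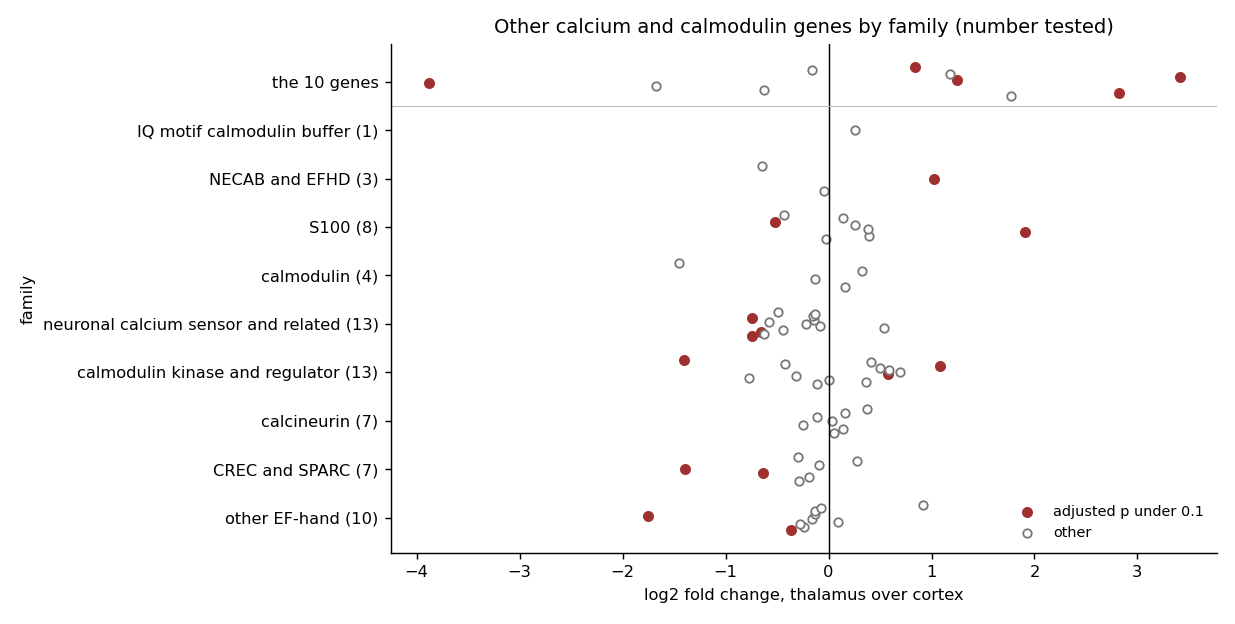
Log2 fold change of thalamus over cortex (horizontal axis) for the 66 other calcium and calmodulin genes tested, by family with the number tested, below the 10 genes described here. Each point is a gene, filled where the adjusted p was below 0.1. The 10 genes ran from -3.88 (*Nrgn*) to 3.41 (*Pcp4l1*), and those of the families from -1.76 (*Gca*) to 1.91 (*S100a11*).

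By pair, of the 66 other genes 8 were called above the cortex in the dLG (10.3% of all genes) and 9 below (9.04%). In the VPM 3 were above (3.56%) and 8 below (5.44%), and in the MGv 7 were above (7.87%) and 11 below (7.51%). Between nuclei, 6 were higher in the dLG than in the VPM (7.93% of all genes) and 4 in the VPM (5.76%). For dLG against MGv, 1 was higher in the dLG (0.571%) and 1 in the MGv (0.454%). For VPM against MGv, 4 were higher in the VPM (7.4%) and 12 in the MGv (7.97%). Nothing is read from these counts against the shares. Several totals depended on single libraries. The 17 for dLG against cortex fell to 11 without cortex replicate d or dLG replicate c, the 11 for VPM against cortex to 7 without cortex replicate d or VPM replicate a, and the 18 for MGv against cortex to 11 without cortex replicate b. The 10 for dLG against VPM fell to 5 without cortex replicate a or b, dLG replicate b or VPM replicate b, to 4 without dLG replicate c or VPM replicate a or d, to 3 without VPM replicate c and to 6 without MGv replicate d. The 16 for VPM against MGv fell to 8 without MGv replicate d or VPM replicate b, to 7 without VPM replicate a, to 6 without VPM replicate c and to 10 without VPM replicate d.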

How the data were processed

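Sorted astrocytes of P7 Gfap::GFP mice were measured in 17 bulk libraries (SMARTer Ultra Low v4 and NEBNext, single reads of 50 bases per the labels). The authors trimmed reads, aligned them with STAR 2.7.0d to mm10 (GRCm38) with Ensembl annotation and deposited raw read counts per gene from featureCounts (Subread 1.6.4). Whether counting used strand is not given in the sources used here. Ensembl IDs were matched to symbols and positions in GENCODE M21 (26548 of 26556 matched). The lowest total of a gene over all libraries was 10 counts.

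Counts were filtered with filterByExpr, scaled by TMM and tested with edgeR 4.0.16 (robust quasi-likelihood, R 4.3.3), thalamus against cortex as 2 groups and the 6 pairs in 1 fit of 4 groups. DESeq2 1.42.0 was an alternative. SE is the absolute log2FC over the square root of F, and 95% intervals are not adjusted. The test was tested on simulated data. Correlations used 100000 resamples. Levels per kb divide by merged exon length. Tissue and replicate letter came from the labels. Beyond pooling 4 brains, nothing states that libraries came from separate litters or days, so p-values measure the spread between these libraries. No 2 libraries agreed within sampling noise (lowest chi-square per degree of freedom within groups, 17.8).

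The members, the wider list and the marker lists were chosen with earlier results of these data known. All members are named with every library. Also named are the 3 genes most similar to each member, and up to 3 called genes with the lowest p per family of the wider list. *Necab3*, *Efhd1*, *Gap43*, *Scgn*, *Slc17a7*, *Slc17a6*, *Slc32a1*, *Pdgfrb*, *Dcn*, *Dlx1* and *Dlx2* were named after their values were seen. Promoter windows are from RefSeq (GRCm38.p6). Alternatives were other scaling, filters, thresholds, fits, a replicate block, the library number series and each library left out.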

Additional observations from a re-analysis of the deposited data

Results flagged for a closer look

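In 4 of 40 groups of libraries, 1 library stood apart from the others of its group by more than Dixon's 95% limit, a limit that chance passes in about 1 in 20 groups. *Pvalb* was low in cortex replicate c, at 0.346 CPM where the other 3 cortical libraries lay between 0.627 and 0.648 CPM. It was high in dLG replicate a, at 3.79 CPM against 1.41 CPM or less in the other dLG libraries. *Nrgn* was high in dLG replicate e, at 5.45 CPM against 2.90 to 3.64 CPM. *S100a6* was high in MGv replicate b, at 119 CPM against 69.4 to 73.3 CPM. No call of a member rested on the *Pvalb* or *S100a6* values, since both genes were called in no comparison.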

How the results depend on the processing

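Of the 38 differences called for the 10 genes, 33 kept their direction and their call under every alternative run, and 5 lost the call under some of them without a change of sign. Of the 32 not called, 5 were called under at least 1 alternative, none with the opposite sign. The genes were chosen on these same libraries, which the alternatives use again. The share of all called genes that kept their call was not taken, so nothing is read from these counts. The number of genes called for MGv against cortex, 7, was 4 at an adjusted p under 0.05 and between 4 and 7 with each library left out. The other 6 counts stayed within 1.5 times. The replicate block (the letter in the label) left all 7 counts as they were, 7 for MGv against cortex included. The labels do not state that libraries of the same letter were paired. Same-letter libraries correlated at -0.17 to 0.27 (median 0.02) over 24 pairs, and those of different letters at -0.45 to 0.35 (median -0.007) over 84 pairs. Of 17 libraries, 4 correlated best with their own letter. These correlations cannot settle whether libraries of the same letter shared mice or days. *Necab1* and *Pvalb* could not be tested with at least 10 counts in every library. Over all genes, the calls for dLG against MGv were 183, with 412 by DESeq2 and 112 in a fit of the 3 nuclei. Those for dLG against VPM were 2445, with 1538 under the library number series and 1250 at an adjusted p under 0.05. At that threshold MGv against cortex had 1804 calls in place of 2746, and VPM against MGv 1576 in place of 2746. These calls, and with them the shares of all genes, also moved with single libraries. Thalamus against cortex (2033) had 1231 without cortex replicate b and 1155 without d. Without cortex replicate b, dLG against cortex (3457) had 2204 and MGv against cortex 1644, and the latter had 1811 without MGv replicate b. For dLG against VPM there were 1617 without dLG replicate b, 3985 without dLG replicate d, and 1043, 1070 and 1190 without VPM replicate a, c and d. For VPM against MGv there were 1458 without MGv replicate b and 1336, 1374 and 1519 without VPM replicate a, c and d, and for dLG against MGv 115 without MGv replicate b. Repeating the alternatives for the 66 other genes was chosen after seeing the data. With the series as a covariate the dLG-cortex count of 17 became 11, the dLG-VPM count of 10 became 4 and the VPM-MGv count of 16 became 9. DESeq2 gave 17 for dLG against VPM and 4 in place of 2 for dLG against MGv, and the fit of the 3 nuclei gave 5 for dLG against VPM. Counts were low for *Pvalb* (7 to 81 in a library) and for *Necab1* in the VPM (6 to 50).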
